A study of Mus musculus with 9 samples.

Results

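The comparison described here sets the large intestine of Eeyore mice against that of wild-type mice, and it uses 6 of the 9 arrays of the series, chosen by their labels as 3 Eeyore and 3 wild-type mice of 8 wk. Eeyore mice descend from a C57BL/6 founder treated with the mutagen ENU, carry a missense change that puts proline in place of serine in the D4 domain of the mucin Muc2, and are labelled as a mixed strain of C57BL/6 and NOD-SCID. Wild-type mice are labelled C57BL/6, and both groups are labelled male. The methods describe an outcross of affected C57BL/6 mice to NOD mice congenic for the k haplotype of the major histocompatibility complex (MHC), followed by an intercross. The labels do not give the zygosity of the arrayed mice, and they do not say which parts of the genome came from which strain. The Muc2 allele and the strain background therefore cannot be told apart in any difference between these groups. Winnie mice, which carry another Muc2 missense allele on C57BL/6, supplied 3 further arrays that shared the estimate of the spread and were used to ask where Eeyore stood apart from both C57BL/6 groups. For every mouse, RNA of proximal and distal segments was combined in equal parts, so that 1 array stands for 1 mouse. Genes named beyond the members fixed by rule were chosen after their values were seen. The labels number the mice but do not say how they were related or housed.

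Muc2 is the main secreted mucin of the large intestine. Goblet cells fold it in the endoplasmic reticulum (ER), join it through disulfide bonds, add O-linked glycans to it in the Golgi and store it before secretion. When unfolded protein builds up in the ER, the sensors Ire1, Perk and Atf6 start the unfolded protein response, which raises the transcription of chaperones, disulfide isomerases and the machinery that sends misfolded proteins to degradation. Large intestine also holds absorptive and enteroendocrine cells, immune cells of the lamina propria, and a muscle wall with enteric neurons, so that a whole-tissue array reads all of them at once. Fewer cells of a type and less RNA per cell cannot be told apart in such samples.

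All values below are the deposited signal, a linear intensity per probe set, and a gene is given by its brightest probe set. The fitted difference is on the log2 scale, Eeyore minus wild-type, with its standard error (SE) and a Benjamini-Hochberg adjusted p from limma with a threshold of 0.05. Of 11453 genes tested, 3504 passed the test (30.6%), of which 1605 were higher in Eeyore (14%) and 1899 were lower (16.6%), and the median difference over all genes was −0.04. Among 22519 probe sets tested, 12.2% were higher and 17.1% lower, 29.3% in all. With a change of at least 2-fold asked for as well, 276 genes were higher (2.41%) and 824 lower (7.19%), or 9.6% together. The arrays of the groups did not overlap for 46% of genes. With 3 against 3 mice an exact two-sided permutation test cannot give a p under 0.1, so single values rest on the fit across all probe sets. Median signals of the arrays ran from 95.5 to 99.3 in Eeyore mice and from 118 to 129 in wild-type mice. Centring each array on its median moved the median difference over genes to 0.28, so that a list's median should be read against that of all genes. Tissue markers were present in both groups. Zg16, a lectin-like goblet cell product of colonic mucus, had signals of 76594, 73294 and 78487 in Eeyore mice and 71531, 63496 and 66225 in wild-type mice. The chloride-bicarbonate exchanger Slc26a3 had signals of 15602, 16868 and 19999 in Eeyore mice against 18435, 19208 and 19125 in wild-type mice. The labelled sex did not match the sex-linked transcripts of 1 group. Xist, the transcript of the inactive X chromosome, had signals of 78.8, 107 and 65.7 in Eeyore mice and 7371, 7916 and 8261 in wild-type mice, while the Y-linked Kdm5d read 600, 560 and 665 in Eeyore mice and 52.1, 64.6 and 47.5 in wild-type mice. Sex as read from these transcripts therefore ran with the group and cannot be told apart from it.

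**Figure D1:**
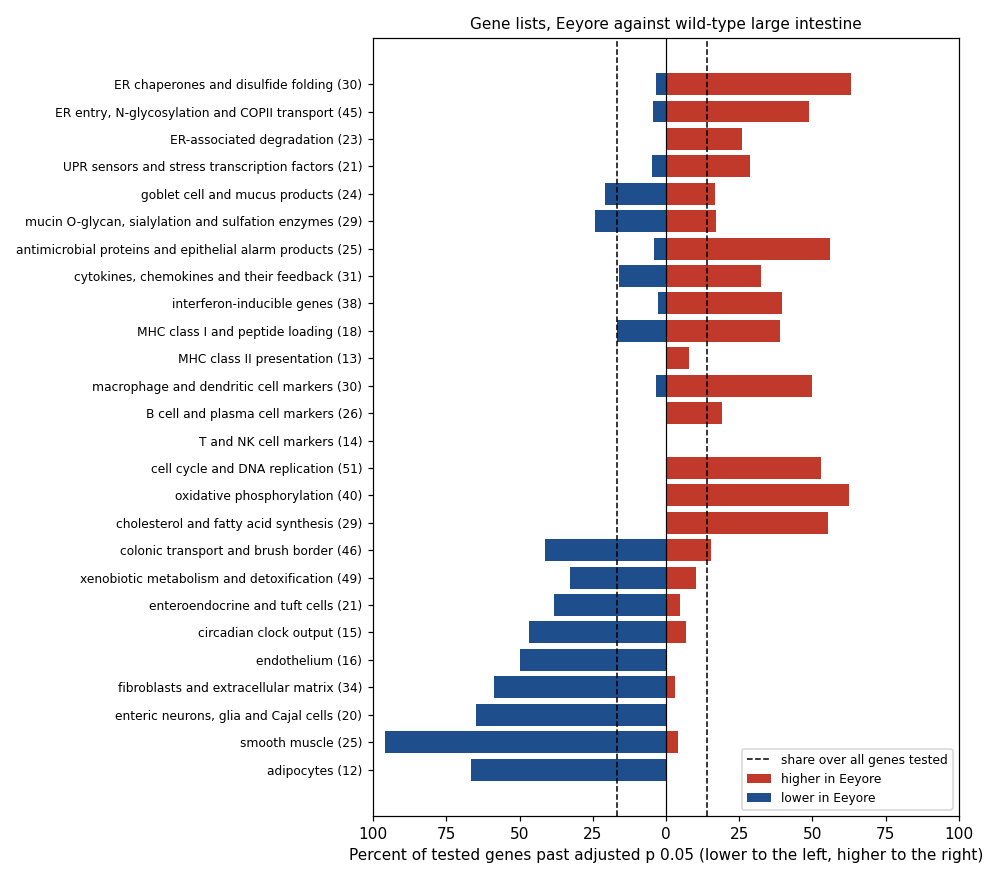
Percent of the tested genes of 26 lists that were higher (red, right) or lower (blue, left) in Eeyore than in wild-type mice at an adjusted p under 0.05, with the number tested in brackets; dashed lines give the shares over all genes, 14% and 16.6%. Folding and secretory lists lie mostly to the right, and muscle, neuron, endothelial and adipocyte lists lie to the left.

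Genes that fold and export proteins in the ER rose together. Of 30 tested genes for ER chaperones and disulfide folding, 19 rose and 1 fell, with a median difference of 0.55. Among them were several whose promoters hold the ER stress response element (ERSE), the sequence through which Atf6 and Xbp1 act with NF-Y. The letters searched were CCAAT, any 9 bases and CCACG, on both strands, in RefSeq windows (GRCm38.p6) of 300 bases around each annotated start. A match was found in 8 of the 26 chaperone genes with such a window, and 6 of these 8 rose. It was found in 2 of 19 degradation genes, in none of 18 genes of the sensors and stress factors and in none of 37 genes of ER entry and transport, a list described below in which 22 of 45 rose. Over all tested genes with a window the share with a match was 0.162%, or 15 of 9275. The windows below show the match in capitals with the bases around it, all upstream of the start and written on the strand of the gene. The genes shown were picked from the matched ones after their values were seen. Sdf2l1, the largest rise of the folding list, is not among the matched genes. Of the 8 matched chaperone genes, the calnexin gene Canx, Dnajc3 and Ero1b are not shown. Canx missed the threshold and was not alone in this, since 6 of the 8 rose.

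Hspa5, chr2:34771995-34772073, plus strand: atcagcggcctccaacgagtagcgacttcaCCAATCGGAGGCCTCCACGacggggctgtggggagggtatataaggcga

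Hsp90b1, chr10:86705503-86705686, minus strand: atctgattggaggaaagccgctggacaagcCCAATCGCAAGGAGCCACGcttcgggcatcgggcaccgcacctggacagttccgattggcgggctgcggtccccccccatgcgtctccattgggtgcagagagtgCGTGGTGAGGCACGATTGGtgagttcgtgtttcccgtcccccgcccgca

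Creld2, chr15:88819490-88819568, plus strand: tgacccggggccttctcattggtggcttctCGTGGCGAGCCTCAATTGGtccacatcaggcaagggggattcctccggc

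Derl3, chr10:75893212-75893290, plus strand: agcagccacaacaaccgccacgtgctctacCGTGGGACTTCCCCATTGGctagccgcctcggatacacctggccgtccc

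Calr, chr8:84847045-84847123, minus strand: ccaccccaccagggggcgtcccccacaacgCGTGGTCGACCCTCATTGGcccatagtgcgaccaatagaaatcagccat

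Pdia6, chr12:17266461-17266539, plus strand: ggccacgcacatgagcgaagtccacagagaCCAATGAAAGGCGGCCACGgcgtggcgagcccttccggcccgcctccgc

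Hspa5 encodes GRP78, the main Hsp70 chaperone of the ER. Its signals were 34074, 36579 and 30617 in Eeyore mice and 14916, 15587 and 12617 in wild-type mice, a 2.35-fold rise (difference 1.23, SE 0.098, adjusted p = 1.0e-05). Every Eeyore mouse lay above every wild-type mouse by a wide margin. Hsp90b1, the ER Hsp90 chaperone GRP94 and the gene shown with 2 matches, rose from 7189, 7496 and 9897 to 13835, 13510 and 13883 (difference 0.76, adjusted p = 0.00083). Creld2, a secreted ER stress protein with isomerase activity, rose from 1126, 1390 and 1144 to 4038, 4505 and 3740, or 3.36-fold (difference 1.75, SE 0.13, adjusted p = 6.8e-06). Its lowest Eeyore signal was more than 2 times the highest wild-type signal.

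The largest rise of the folding list was that of Sdf2l1, a partner of the ER Hsp40 proteins. Its signals were 646, 683 and 800 in Eeyore mice against 226, 166 and 196 in wild-type mice, a 3.63-fold difference (1.86, SE 0.20, adjusted p = 7.6e-05). Manf, a small ER protein released under stress, stood at 12021, 13607 and 12294 against 4031, 4367 and 4461 (2.95-fold, adjusted p = 5.2e-07), with little spread in either group. The disulfide isomerase Pdia4 read 670, 887 and 792 against 319, 182 and 301 (difference 1.58, adjusted p = 0.0018), but the call was lost when its probe sets were averaged (adjusted p = 0.43). The ER-resident isomerase Agr2, which Muc2 folding needs, rose from 27026, 28708 and 26722 to 50875, 47864 and 46812 (1.76-fold, adjusted p = 2.5e-05). Calreticulin (Calr) rose by 0.57, Pdia6 by 0.32 and Dnajb9, an Hsp40 protein, by 0.82, while calnexin (Canx), which like calreticulin holds glycoproteins, gave 0.15 (adjusted p = 0.37) although its promoter also holds the element. Qsox1, a sulfhydryl oxidase of the Golgi and secreted space, was the 1 member of the list that fell (−0.87).

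**Figure D2:**
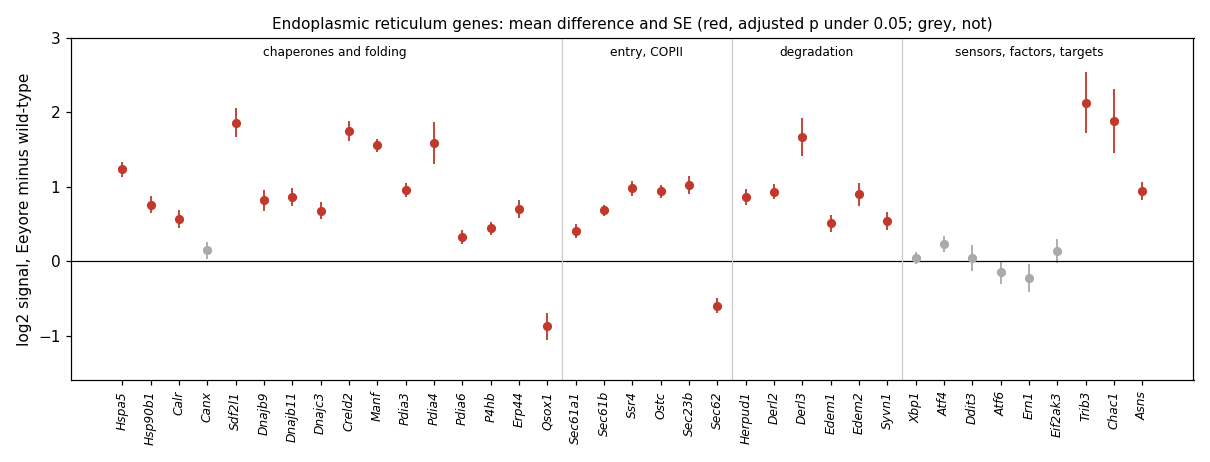
Difference in log2 signal, Eeyore minus wild-type, for 37 ER genes in 4 groups by role; points are means of 3 against 3 mice, bars are SE, red marks an adjusted p under 0.05. Most of the chaperone and folding genes plotted sit above 0, with Canx near 0 and Qsox1 below it, while Xbp1, Atf4, Ddit3 and the sensors sit near 0. The folding genes and the entry and COPII genes plotted were picked from 30 and 45 tested. The degradation genes plotted are the 6 that rose, out of 23 tested.

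Entry into the ER and export from it moved with folding. Of 45 tested genes for translocation, N-glycosylation and COPII transport, 22 rose and 2 fell (median 0.32). Ssr4, a subunit of the translocon-associated complex, rose by 0.98, Ostc, a subunit of oligosaccharyltransferase, by 0.94, and the COPII coat gene Sec23b by 1.02 (adjusted p = 0.00013). Sec62 fell by 0.60 and Golgb1 by 0.49. Genes of ER-associated degradation rose in 6 of 23 cases and fell in none, with a median of 0.26. Derl3, a derlin that takes misfolded glycoproteins out of the ER and whose promoter is shown above, read 802, 836 and 702 in Eeyore mice against 259, 293 and 192 in wild-type mice (difference 1.67, SE 0.25, adjusted p = 0.00068). Derl3 is also made by plasma cells, whose other transcripts are given below. Edem2, Derl2, Herpud1, Syvn1 and Edem1 were the other members that rose, by 0.90, 0.93, 0.86, 0.54 and 0.51.

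The list of sensors and stress transcription factors, which also holds targets of the response, had a smaller median than the folding list. Of 21 tested, 6 rose (28.6%) and 1 fell (4.76%), where 14% and 16.6% of all genes did, and the median was 0.10. Several sensors and factors themselves changed little in their total transcript. Xbp1, whose mRNA is spliced by Ire1, had signals of 10407, 11086 and 10145 in Eeyore mice and 10608, 9560 and 10487 in wild-type mice (0.05, adjusted p = 0.70), and these probe sets were not split by spliced form. Values for Atf4 (0.24, adjusted p = 0.12), Ddit3 (0.04) and the Perk gene Eif2ak3 (0.13) also missed the threshold. The members that rose included the following. The pseudokinase Trib3 read 340, 300 and 230 against 133, 38.7 and 54.3 (difference 2.13, adjusted p = 0.0027), and Chac1, which degrades glutathione, read 567, 705 and 285 against 173, 214 and 61.4 (1.88, adjusted p = 0.0065). Asparagine synthetase (Asns) rose by 0.94. Ppp1r15a, which restores translation, fell by 0.53.

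Against Winnie, the ER values were close for some genes and apart for others. Background calls were few here, since 297 of 11453 genes differed between Eeyore and Winnie (2.59%), 1.29% higher and 1.3% lower in Eeyore, and 2.3% of probe sets. Creld2 was higher in Eeyore than in Winnie by 0.81 (adjusted p = 0.0062), Sdf2l1 by 0.83 (adjusted p = 0.050), Pdia4 by 1.42 (adjusted p = 0.021) and Derl3 by 1.35 (adjusted p = 0.014). For Hspa5 the difference was 0.20 with an SE of 0.098 (adjusted p = 0.36), and for Hsp90b1 it was 0.10 (adjusted p = 0.74). In all, 5 of the 30 folding genes were higher in Eeyore than in Winnie, 1 was lower and the others missed the threshold.

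Muc2 itself had signals of 36854, 35935 and 32542 in Eeyore mice and 85946, 75006 and 70046 in wild-type mice, a 2.19-fold fall (−1.13, SE 0.12, adjusted p = 7.7e-05). The groups did not overlap. Of 24 tested genes of the goblet cell list, 4 rose (16.7%) and 5 fell (20.8%), near the shares of 14% and 16.6% over all genes, and the median was −0.01. Those that fell with Muc2 were the kallikrein Klk1 (19564, 14725 and 14182 against 44945, 42271 and 46570, adjusted p = 6.6e-06), the mucus proteins Fcgbp (−0.73) and Clca1 (−0.75), and Gfi1 (−1.18), a transcription factor of secretory cells. Trefoil factor 3 (Tff3), which is packed with Muc2, read 44302, 44597 and 45462 against 45656, 42076 and 42157 (0.05, adjusted p = 0.67). The goblet lineage factors Atoh1 (0.03) and Spdef (0.27) missed the threshold as well. Agr2, described above, the chloride channel Best2 (1.25) and the resistin-like protein Retnlb (1.02) rose, but the calls for Best2, Retnlb and Clca1 were each lost in at least 1 alternative. Retnlb read 42105, 33274 and 21976 in Eeyore mice and 11466, 11034 and 28907 in wild-type mice, so that the groups overlapped through 1 wild-type mouse.

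Of 29 enzymes that build mucin glycans, 5 were higher (17.2%) and 7 lower (24.1%), not far from the shares over all genes, with a median of −0.05. St3gal4, a sialyltransferase that caps galactose, read 56.4, 63.4 and 68.3 in Eeyore mice against 1476, 1457 and 2142 in wild-type and 2593, 3207 and 2853 in Winnie mice. It fell by 4.73 against wild-type (SE 0.18, adjusted p = 2.5e-08) and its difference from Winnie was −5.52 (adjusted p = 6.2e-09). B3gnt6, which makes the core 3 structure typical of colonic mucin, read 222, 196 and 145 against 1177, 1275 and 690 (−2.45, adjusted p = 0.0073). Gcnt1, which makes core 2, read 470, 453 and 386 against 1418, 1439 and 1346 (−1.69, adjusted p = 1.8e-05) and differed from Winnie by −1.19 (adjusted p = 0.00083), while its other probe set gave 0.29 (adjusted p = 0.47). In the other direction B3gnt3, which extends core 1, rose by 1.11 and the fucosyltransferase Fut2 by 0.83.

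**Figure D3:**
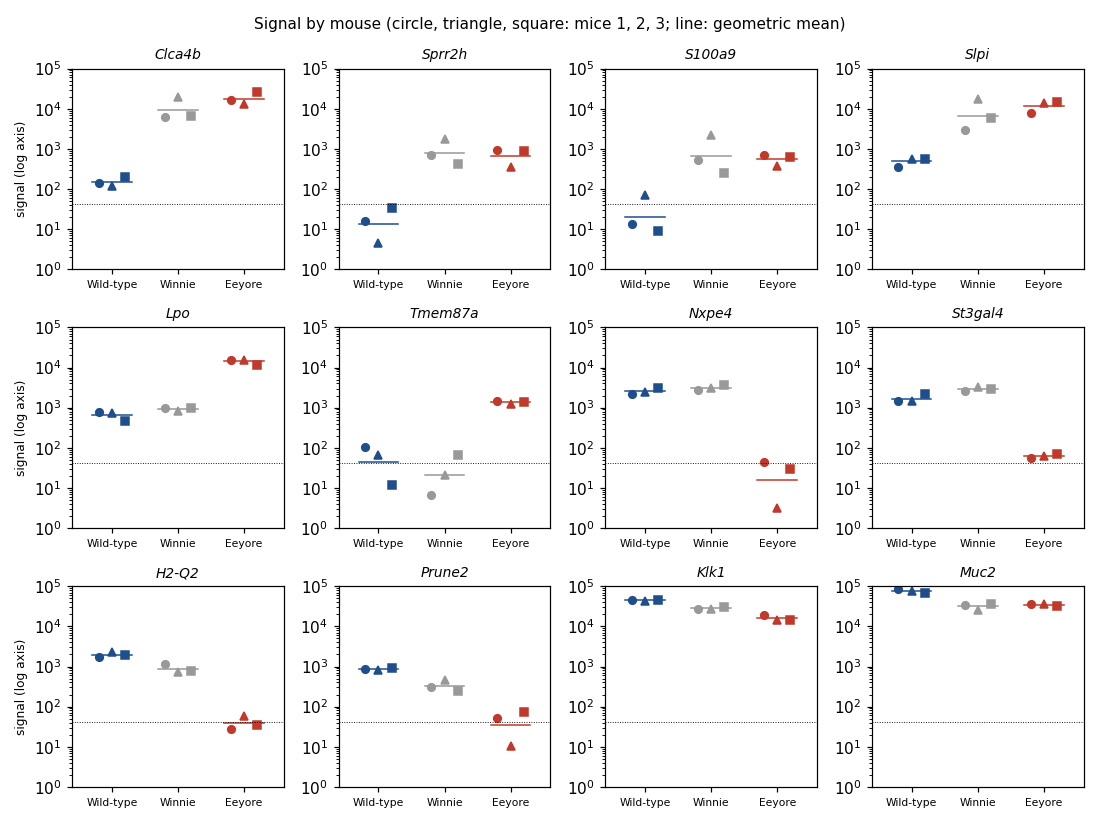
Signal of 12 genes in each mouse on a log axis, with wild-type in blue, Winnie in grey and Eeyore in red; symbols mark mice 1 to 3, lines are geometric means, and the dotted line at 41.1 is the highest 25th percentile of any array. Clca4b, Sprr2h, S100a9 and Slpi are high in both mutants, while Lpo, Tmem87a, Nxpe4, St3gal4, H2-Q2 and Prune2 set Eeyore apart from both other groups.

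The 10 largest rises among genes without overlap included genes of epithelial repair and of defence. Clca4b, a member of the Clca family of secreted channel regulators, read 16133, 13284 and 25700 in Eeyore mice and 140, 115 and 196 in wild-type mice (difference 6.91, SE 0.38, adjusted p = 5.0e-07). Sprr2h, a small proline-rich protein of stratified epithelium, read 942, 360 and 868 against 15.6, 4.54 and 33.9 (5.64, adjusted p = 0.00018). The wild-type signals of Sprr2h lay under the 25th percentile of the brightest array, so that this fold is poorly fixed. Slpi, a secreted protease inhibitor, read 7843, 13669 and 14922 against 359, 565 and 568, a difference of 4.59 (adjusted p = 8.4e-05). Alongside them were the calprotectin subunits S100a9 (703, 362 and 636 against 13.2, 68.4 and 8.76) and S100a8 (523, 262 and 439 against 33.5, 12.3 and 85.6). Both subunits are also in the list of neutrophil and mast cell markers, and which cells made them was not tested. Lpo, a peroxidase of mucosal secretions, read 15675, 15505 and 11663 against 790, 726 and 468 (4.46, adjusted p = 5.2e-08). Its Winnie signals of 984, 823 and 955 lay near those of wild-type. Tmem87a, a Golgi membrane protein, the cardiac myosin light chain Myl7, the Y-linked Eif2s3y and the antibody segment Igkv6-20 completed these 10. Most wild-type signals of S100a9, S100a8, Eif2s3y and Igkv6-20 also lay under 41.1, so that the size of these rises and their order are poorly fixed too. The 10 largest falls were those of Nxpe4, Xist, H2-Q2, Tnfsf13os, St3gal4, Prune2, Thrsp, Retn, Naaladl1 and S100g, and their differences lay between −7.32 and −4.37. In several of them, such as Nxpe4, H2-Q2 and Tnfsf13os, most Eeyore signals lay under 41.1, the dotted line in the plot of signals by mouse, so that the size of these falls and their order are poorly fixed.

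Across the antimicrobial and alarm list, 14 of 25 tested genes rose and 1 fell (median 1.02). Reg3g, a lectin that kills Gram-positive bacteria, read 9853, 15070 and 15692 in Eeyore mice against 1440, 1397 and 941 in wild-type mice (10.7-fold, adjusted p = 0.00015). Winnie signals were 3846, 1408 and 901, and Eeyore stood 2.97 above them (adjusted p = 0.0018). The peptidoglycan recognition protein Pglyrp1 behaved alike, with 13413, 14397 and 17452 against 4504, 3867 and 3472 in wild-type (1.93, adjusted p = 2.5e-06) and a difference from Winnie of 1.83 (adjusted p = 1.1e-05). The phospholipase Pla2g2a rose 7.2-fold (1304, 1441 and 941 against 199.6, 114 and 208). Ang4, an antimicrobial ribonuclease, read 48517, 32768 and 29767 against 39574, 37588 and 56870 (−0.28, adjusted p = 0.70), while it stood 3.30 above Winnie (adjusted p = 0.0032). In the list of squamous barrier and repair genes 10 of 22 rose and 5 fell. The checkpoint and barrier protein Sfn rose by 2.29, and the growth factors Ereg and Hbegf rose by 1.63 and 0.98. Krt6a and Krt14, keratins of squamous epithelium, fell instead, from 597, 618 and 214 to 40.7, 73.8 and 76.4 for Krt6a. Krt5, chosen after its values were seen, moved with them (117, 102 and 7.09 against 670, 630 and 269), and the part of these keratin-bearing cells in the samples was not tested.

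Of 31 tested cytokines, chemokines and feedback genes, 10 rose and 5 fell (median 0.28). Interleukin-1β (Il1b) read 886, 1298 and 1430 in Eeyore mice against 222, 160 and 129 in wild-type mice (2.83, adjusted p = 0.00091), and its antagonist Il1rn rose by 1.52. Socs3, which dampens cytokine signals, rose by 1.95 and the endotoxin co-receptor Cd14 by 1.17. The interferon-γ-induced chemokine Cxcl9 read 509, 2801 and 4289 against 379, 234 and 173 (2.88, adjusted p = 0.0043). Its lowest Eeyore value, in mouse 1, was close to the wild-type range, whereas mice 2 and 3 lay far above it. Ccl8 showed the same order within the group, with 911, 3072 and 5548. Ccl25, which draws T cells to the small intestine, fell by 1.72.

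That gap between Eeyore mouse 1 and mice 2 and 3 ran through antigen presentation and immune cell markers. All 13 tested MHC class II genes and all 18 tested class I and peptide loading genes had their lowest Eeyore signal in mouse 1, as did 31 of 38 interferon-inducible genes, against 3712 of all 11453 genes. The same held for 27 of 30 macrophage and dendritic cell markers, 23 of 26 B and plasma cell markers and 11 of 14 T and NK cell markers. The part of these cells in the antigen presentation values was not tested. The class II chain H2-Aa read 3164, 19247 and 29257 in Eeyore mice and 6015, 5847 and 5588 in wild-type mice (1.06, SE 0.58, adjusted p = 0.19). On this probe set mouse 1 lay below every wild-type mouse and the other two lay above every one. The H2-Aa probe sets disagreed, since another read 2238, 15076 and 22039 against 1154, 1342 and 1872 (2.67, adjusted p = 0.0087), with mouse 1 above every wild-type mouse, and a dimmer one was lower (−1.21, adjusted p = 0.024). H2-Ab1 (850, 4580 and 7505 against 1673, 1966 and 1661) and H2-DMa (224, 2529 and 4040 against 566, 752 and 441) gave the same picture. Only 1 of the 13 class II genes passed the test, the invariant chain Cd74 (1.71, adjusted p = 0.019), and without Eeyore mouse 1 the count was 8 of 13. The enzyme Ido1, which degrades tryptophan, read 464, 9931 and 17474 against 654, 422 and 324.

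**Figure D4:**
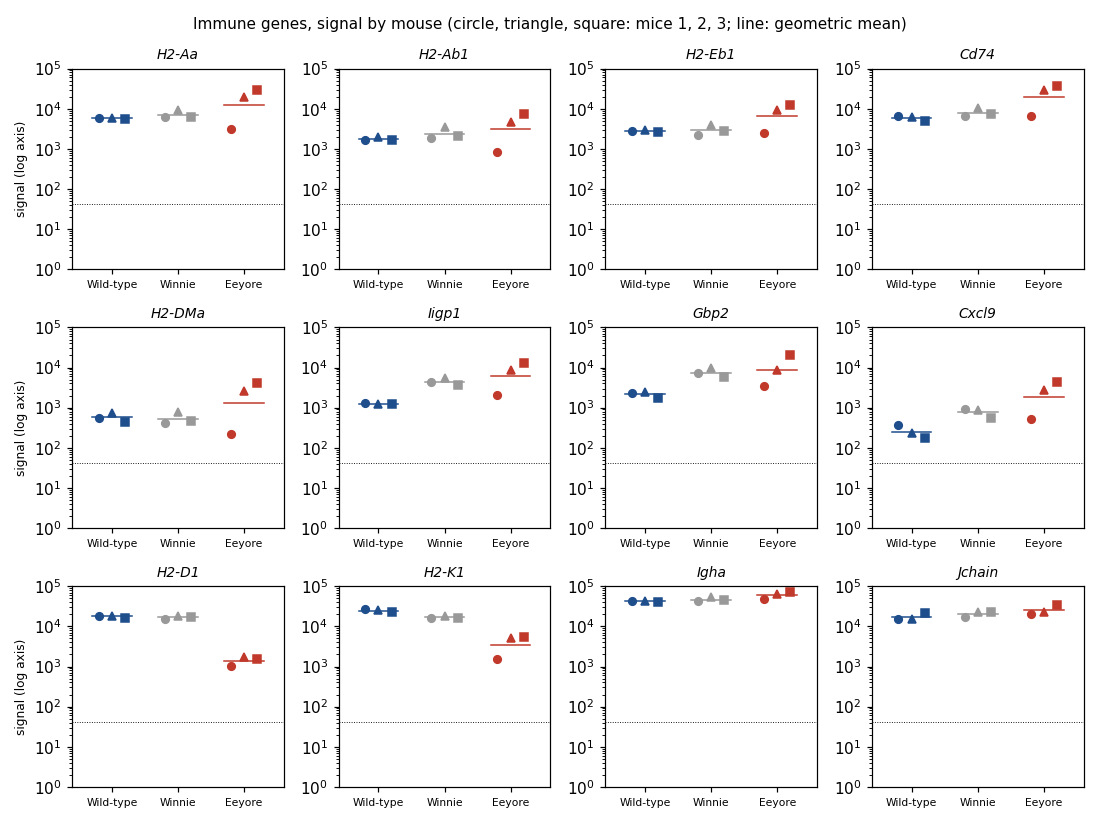
Signal of 12 immune genes in each mouse on a log axis, coloured and marked by group and mouse, with geometric means as lines and the dotted line at 41.1. In the class II and interferon panels Eeyore mouse 1 (circle) lies well under mice 2 and 3, whereas H2-K1 and the brightest of the H2-D1 probe sets, which disagree in direction, are low in all 3 Eeyore mice.

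Interferon-inducible genes rose in 15 of 38 cases and fell in 1, with a median of 0.51, and the count that rose was 25 without Eeyore mouse 1, 7 without Eeyore mouse 2 or 3, 7 without wild-type mouse 1 and 8 without wild-type mouse 2 or 3. The GTPases Iigp1 (2051, 8835 and 12936 against 1298, 1252 and 1198) and Gbp2 (3478, 8507 and 20464 against 2361, 2470 and 1706) rose by 2.30 and 1.98. Igtp rose by 1.25, a call lost in 12 alternatives. The antiviral genes of the list did not move one way. Oas1a, Oasl1 and Oasl2 of the oligoadenylate synthetase family rose by 0.67, 0.66 and 0.51, and the nucleic acid sensor Zbp1 rose by 1.68. Rsad2 read 1534, 1333 and 1520 against 2797, 2749 and 2534 (−0.88, adjusted p = 0.0014), and Ifit1 read 3292, 3223 and 2314 against 3976, 3365 and 2782 (−0.20, adjusted p = 0.42). Rsad2 and Ifit1 were both higher in Eeyore than in Winnie, by 1.39 (adjusted p = 0.00034) and 2.08 (adjusted p = 4.6e-05), since Winnie signals of Ifit1 were 583, 791 and 711. Of the 38 genes, 15 were higher in Eeyore than in Winnie, where 1.29% of all genes were. The core letters of the interferon-stimulated response element, GAAA, any 2 bases and GAAA on either strand, stood in 16 of the 27 list genes with a promoter window and in 3.72% of all tested genes with one. Of these 16, 8 rose and 1 fell. Windows of genes that rose (Gbp2, Igtp), fell (Rsad2) or missed the threshold (Ifit1) are shown with the matches in capitals.

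Gbp2, chr3:142620574-142620643, plus strand: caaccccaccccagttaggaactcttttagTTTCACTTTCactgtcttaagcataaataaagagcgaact

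Igtp, chr11:58199492-58199555, plus strand: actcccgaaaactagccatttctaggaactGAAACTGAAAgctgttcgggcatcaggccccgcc

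Ifit1, chr19:34640755-34640843, plus strand: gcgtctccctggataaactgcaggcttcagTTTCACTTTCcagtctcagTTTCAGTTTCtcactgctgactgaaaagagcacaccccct

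Rsad2, chr12:26456533-26456602, minus strand: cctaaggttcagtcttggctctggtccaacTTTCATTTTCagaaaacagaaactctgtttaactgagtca

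These 4 genes were chosen among those with a match, so its presence in all 4 windows follows from the choice and is a description only.

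Of 18 class I and peptide loading genes 7 rose and 3 fell, and the count that rose was 14 without Eeyore mouse 1 and 3 without Eeyore mouse 2. The class I heavy chains split by probe set. H2-D1, a classical class I heavy chain, had signals of 1003, 1687 and 1509 in Eeyore mice against 18659, 18409 and 16398 in wild-type and 15692, 17995 and 17080 in Winnie mice on its brightest probe set (−3.70, adjusted p = 5.2e-08). Another probe set of the same gene went the other way, with 15894, 22456 and 27018 against 515, 272 and 316 (5.91, adjusted p = 3.5e-06), and the mean over its probe sets gave 0.13 (adjusted p = 0.81). No direction can therefore be given for H2-D1 as a gene. H2-K1 read 1566, 4993 and 5392 against 26431, 25569 and 22644 (−2.83, adjusted p = 0.00018), with its other 3 tested probe sets also lower. H2-Q2 read 27.4, 57.1 and 35.6 against 1717, 2286 and 1990 (−5.70). The non-classical H2-T3 and H2-Q10 rose by 1.26 and 1.72, and a dim H2-T3 probe set outside the test read 922, 1238 and 1075 in Eeyore mice against 8.21, 13.2 and 27.5. Class I genes are among the most polymorphic of the mouse, and the arrays cannot say whether the amount or the sequence of these transcripts differed. The immunoproteasome subunit Psmb9, in the same region, read 1804, 8611 and 9994 against 1420, 1105 and 1122 (2.15, adjusted p = 0.0058), again lowest in Eeyore mouse 1.

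Because the strain label names NOD-SCID, the scid defect being a Prkdc mutation that blocks the joining of antigen receptor genes, transcripts of lymphocytes were read in each mouse. Prkdc gave 292, 389 and 327 in Eeyore mice and 500.2, 378 and 397 in wild-type mice (−0.34, adjusted p = 0.20), a level that does not read the mutation. The IgA heavy chain (Igha) read 49449, 63852 and 73373 against 42447, 42246 and 40923 (0.55, adjusted p = 0.0070), and the J chain of secreted antibody (Jchain) read 20593, 23438 and 34360 against 15098, 15230 and 21981. Ighm (654, 1683 and 2001 against 1401, 1091 and 505) and Cd79a (328, 338 and 465 against 413, 264 and 259) overlapped between the groups on their brightest probe sets. Of the 11 probe sets of Ighm, 3 were lower in Eeyore (−1.71, −1.59 and −1.49), so that no direction can be given for it. Igha was thus above every wild-type mouse in all Eeyore mice, whereas the J chain overlapped through wild-type mouse 3 and its call was lost in 12 alternatives. Of 26 B and plasma cell genes, 5 rose (19.2%) and none fell, where 14% and 16.6% of all genes did. Derl3, counted above among the degradation genes, is also 1 of these 5. The count that rose was 10 without Eeyore mouse 1 and 3 without Eeyore mouse 3. Over all probe sets, 2430 and 2343 were higher in these 2 runs, against 2747 with every mouse. No T and NK cell marker of 14 passed the test in limma, 1 had an unadjusted p under 0.05, and 15 of the 29 with a probe set were too dim to be tested. The cytotoxic granzymes Gzmb (255, 642 and 577) and Gzma (495, 658 and 1004) overlapped the wild-type range but stood 3.34 and 3.46 above Winnie (adjusted p = 0.010 and 0.0032). Gzmb signals were 351, 299 and 234 in wild-type mice and 15.1, 113 and 52.7 in Winnie mice. Against wild-type, Gzmb missed the threshold in Eeyore (0.65, adjusted p = 0.44) and was lower in Winnie (−2.70, adjusted p = 0.0084). Macrophage and dendritic cell markers rose in 15 of 30 cases and fell in 1, with a summed signal of 31383 to 57639 in Eeyore mice and 23465 to 25256 in wild-type mice. The count that rose was 21 without Eeyore mouse 1 and 10 without Eeyore mouse 3, and mouse 1 was the lowest Eeyore mouse in most of these markers, as given above. Its members included the signalling adaptor Tyrobp (946, 1744 and 2077 against 542, 591 and 548) and the complement gene C1qa (1.13), while the scavenger receptor Cd163 fell by 1.45, a call lost in 11 of 18 alternatives.

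Genes of the gut wall were lower in Eeyore mice. Of 25 smooth muscle genes, 24 fell and 1 rose, with a median of −1.50, and their summed signal was 89248 to 98576 in Eeyore mice and 231010 to 236510 in wild-type mice. Smooth muscle myosin (Myh11) read 3334, 3379 and 2974 against 13004, 13338 and 11713 (−1.97, SE 0.10, adjusted p = 3.5e-07). Synemin (Synm), an intermediate filament protein, gave −2.66, and Synpo2, an actin-binding protein, gave −2.10. The contractile actins Acta2 and Actg2 fell by 1.21 and 1.11. Ldb3, a Z-disc protein, was the exception at 0.59. Markers of enteric neurons, glia and Cajal cells fell in 13 of 20 cases and rose in none (median −1.38), among them the synaptic protein Snap25 (163, 135 and 61.5 against 603, 492 and 626) and Kit (340, 212 and 254 against 1212, 1056 and 860). Fibroblast and matrix genes fell in 20 of 34 cases, with Sparcl1 at 2231, 2041 and 2058 against 10423, 10288 and 9089, whereas the collagens Col1a1 (0.07) and Col3a1 (−0.10) missed the threshold. Endothelial genes fell in 8 of 16 cases, led by endothelin-1 (Edn1, −2.44), Cd34 (−1.63) and the water channel Aqp1 (−1.55).

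Fat cell transcripts fell as well. Of 12 adipocyte genes 8 fell and none rose, with a median of −1.56 and a summed signal of 6791 to 9481 in Eeyore mice and 25185 to 32050 in wild-type mice. Adiponectin (Adipoq) read 76.4, 476 and 254 against 3955, 4320 and 2744, resistin (Retn) read 11.2, 88.5 and 83.3 against 937, 1090 and 865, and carbonic anhydrase 3 (Car3) read 183, 1311 and 1220 against 11617, 11001 and 8111. Transcripts of another tissue, the pancreas, were spread widely within the wild-type group and were present in Eeyore mice too. The pancreatic elastase Cela2a read 32755 and 31792 in wild-type mice 1 and 2 and 227 in mouse 3, with 4682, 1877 and 2454 in Eeyore mice, and Cpa1 and Cel had the same order. Only 1 of the 9 tested genes of the pancreas and small intestine list passed the test, the lipoprotein gene Apob, and without wild-type mouse 3 the count was 8, all lower in Eeyore. How much fat, muscle or pancreas each sample held was not recorded in the labels, and their part in the epithelial results was not tested.

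**Figure D5:**
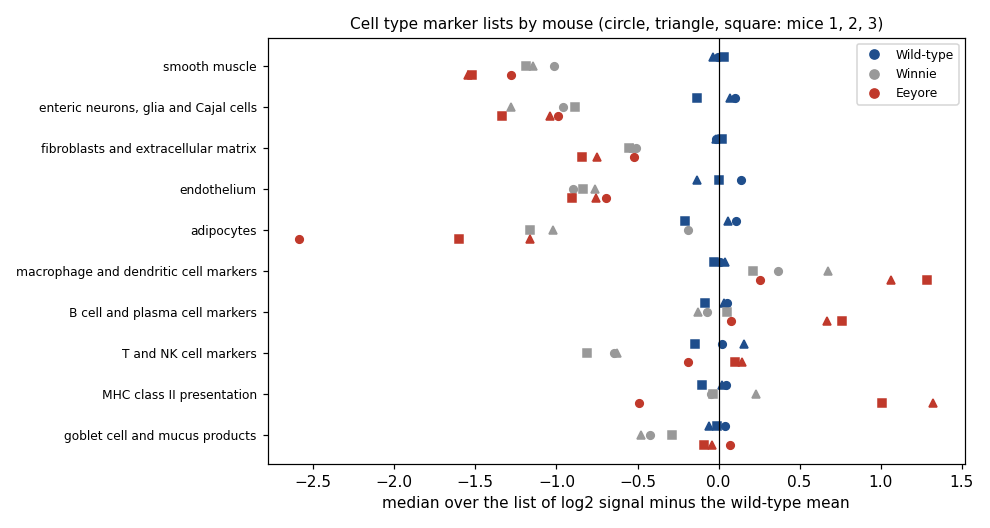
Median over each marker list of the log2 signal minus the wild-type mean, for every mouse; colours give the group and symbols the mouse. Wall and fat lists lie left of 0 in all Eeyore mice, and in the MHC class II list Eeyore mouse 1 lies left of 0 while mice 2 and 3 lie to the right.

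Epithelial functions showed a mixed picture. Among 46 genes of colonic transport and the brush border, 7 rose (15.2%) and 19 fell (41.3%), where 14% and 16.6% of all genes did. Their median was −0.29, but 0.04 after centring each array on its median. Nxpe4, a colonic epithelial gene of unsettled function, read 45.1, 3.21 and 28.9 in Eeyore mice against 2246, 2429 and 3142 in wild-type and 2680, 3141 and 3693 in Winnie mice (−7.32, adjusted p = 3.5e-05). The calcium-binding protein S100g read 31.1, 128 and 489 against 3470, 3217 and 1536 (−4.37, adjusted p = 0.0090), the zinc and manganese transporter Slc30a10 fell by 3.18, and the magnesium channel Trpm6 by 2.19. Villin (Vil1) rose by 0.63. The enzymes and pumps of xenobiotic metabolism fell in 16 of 49 cases (32.7%) and rose in 5 (10.2%). Their median was −0.24, but 0.086 after centring each array on its median. Cyp2f2, a cytochrome P450, read 65.0, 64.8 and 53.5 against 764, 1005 and 687 (−3.73, adjusted p = 1.0e-06), Cyp4b1 fell by 2.43, and the drug pump Abcb1a by 1.25. Fatty acid oxidation genes fell in 10 of 34 cases (29.4%), led by the coactivator Ppargc1a (229, 207 and 342 against 1874, 1298 and 1777), and rose in 3 (8.82%). Their median was −0.11, but 0.22 after the same centring. The count that fell was 3 without Eeyore mouse 2, 6 without Eeyore mouse 3, 3 without wild-type mouse 1 and 1 without wild-type mouse 2. Enteroendocrine and tuft cell genes fell in 8 of 21 cases (38.1%) and rose in 1 (4.76%), with Cpe and Pcsk1, which process peptide hormones, at −1.59 and −1.23.

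Growth and synthesis genes rose. Of 51 cell cycle and replication genes 27 rose and none fell (median 0.52), among them the mitotic ubiquitin ligase partner Ube2c (4035, 5135 and 4744 against 1814, 1560 and 1419, adjusted p = 4.6e-05), Hmmr (0.87) and the inhibitor Cdkn1a (10571, 12191 and 11721 against 7147, 6811 and 5801). The proliferation marker Mki67 gave 0.27 (adjusted p = 0.13). Of 29 genes of cholesterol and fatty acid synthesis 16 rose and none fell (median 0.48). Fdps, which makes farnesyl diphosphate, read 6745, 7477 and 6859 against 2271, 2304 and 2781 (1.52, adjusted p = 1.9e-05), and Nsdhl, a later enzyme of the same pathway, rose by 1.19. Both were also above Winnie, by 0.64 and 0.96 (adjusted p = 0.027 and 0.0039). None of the 22 list genes with a promoter window held the sterol regulatory letters ATCAC, any base and CCAC, which 0.226% of all tested genes held. Oxidative phosphorylation genes rose in 25 of 40 cases and fell in none (median 0.33), a count that was 14 higher and 2 lower after quantile normalization. Stem cell and Wnt target genes went down, with 7 of 16 lower and none higher. The adhesion receptor Cd44 read 877, 860 and 834 against 2889, 3008 and 2728 (−1.75, adjusted p = 2.1e-06) on its brightest probe set. Its other tested probe sets gave smaller differences, −0.59 (adjusted p = 0.0063) and −0.73 (adjusted p = 0.056). Rgmb fell by 2.30, while the stem cell marker Lgr5 gave −0.58 (adjusted p = 0.054). Clock output genes fell in 7 of 15 cases and rose in 1, with Dbp at 48.5, 183 and 339 against 914, 712 and 1217 and Nr1d1 at −2.15, and the count that fell was 4 without wild-type mouse 2. The hour at which tissue was taken is not given in the labels. Of 22 tight junction genes, 5 were higher (22.7%), among them Cldn3 and Cldn8, and 2 were lower (9.09%), among them occludin (Ocln, −0.61). These shares were not far from the 14% and 16.6% over all genes.

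Genes that set Eeyore apart from both C57BL/6 groups were read as those called in 1 direction against wild-type and against Winnie, with all Eeyore mice beyond the other 6. There were 200 of 11453 (1.75%), 83 higher (0.725%) and 117 lower (1.02%), out of 203 (1.77%) before overlap was considered. For 130 of them Winnie did not pass the test against wild-type, for 48 it moved the same way and for 22 the opposite way. The 10 with the largest smaller difference were Nxpe4, Tmem87a, St3gal4, H2-Q2, Tnfsf13os, Lpo, H2-D1, Nos1ap, Prune2 and Myl7. Their order and the size of their differences are poorly fixed where a group lay mostly under 41.1, as Eeyore did for Nxpe4, H2-Q2, Tnfsf13os and Nos1ap and Winnie for Tmem87a, and H2-D1 is placed here by its brightest probe set alone. Tmem87a read 1459, 1234 and 1369 in Eeyore mice, 107, 65.6 and 11.9 in wild-type mice and 6.45, 20.8 and 64.6 in Winnie mice. Tnfsf13os, an antisense transcript at the gene of the cytokine April, read 7.33, 25.5 and 24.8 against 575, 543 and 566 in wild-type mice. Prune2 read 51.9, 10.6 and 74.8 against 876, 828 and 913.

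These 200 genes were spread unevenly over the chromosomes. Chromosomes 12 (3.02% of the genes tested there), 5 (2.99%) and 19 (2.84%) had the highest shares, while chromosome 1 had 4 of 652, chromosome 10 had 3 of 537 and chromosome 14 had none of 380. On chromosome 7, where Muc2 lies, the share was 2.56%, or 22 of 861. Among the 192 with a place in the RefSeq order of coding genes, 10 pairs were next neighbours, and both members moved the same way in all 10. How often neighbours move the same way over all genes tested was not counted, so nothing is concluded from these pairs. Such pairs, by the brightest probe sets, were Prune2 with Gcnt1 (−4.66 and −1.69) on chromosome 19, Fam126a with Klhl7 (−1.45 and −1.45) and Rundc3b with Abcb1a (−1.70 and −1.25) on chromosome 5, the metallothionein genes Mt2 and Mt1 (−1.45 and −1.11) on chromosome 8 and the interferon-induced Oasl2 and Oasl1 (0.51 and 0.66) on chromosome 5. The other tested probe sets of Prune2 (0.73, adjusted p = 0.13) and Gcnt1 (0.29, adjusted p = 0.47) did not fall. Of the 118 such genes with more than 1 probe set, 3 had a tested probe set that moved the other way by at least 1 on the log2 scale. Transcript amount and strain differences under the probes cannot be told apart in these genes.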

How the data were processed

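Large intestine RNA of 3 Eeyore, 3 Winnie and 3 wild-type mice of 8 wk was read on 1 Affymetrix Mouse 430_2 array per mouse after one-cycle labelling. The deposited values are linear signal intensities per probe set, which the authors scaled to a common trimmed mean on each array. The algorithm that made the signals is not given in the sources used here, and arrays carry no read depth, so that the number of mice limits the precision. Here 45101 probe sets less 64 controls were put on the log2 scale with no further scaling, and the 22519 with a mean at or above the median (6.425, a signal of 85.93) entered a linear model in limma 3.58.1 under R 4.3.3, with moderated variances that follow the mean signal and Benjamini-Hochberg adjustment at a threshold of 0.05. Group means of all 9 arrays were fitted together. Where nothing in the labels says that mice were unrelated, p-values measure the spread between these samples.

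For each gene the brightest of the probe sets annotated to it and to no other gene was used, since 34945 probe sets had 1 symbol, 932 several and 9160 none. Promoter windows came from RefSeq (GRCm38.p6). The 34 gene lists and the members described were chosen with earlier results of these data known. Genes were named by rule: the 10 largest rises and falls without overlap and with a signal of at least 200 in the higher group, the 3 largest changes of each list, genes the study names, the 10 furthest from both other groups, and transcripts that check the labels. Alternatives were quantile normalization, median centring, an added signal of 32, other filters, other variance models, the Eeyore and wild-type arrays alone, the mouse number as a block, averaged probe sets, a 2-fold limit and leaving out each mouse. The fit was tested on simulated data.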

Additional observations from a re-analysis of the deposited data

Results flagged for a closer look

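Both mutants were compared with the same wild-type mice, and the difference between their changes was itself tested in limma. The change in Eeyore mice differed from that in Winnie mice for 28 of the 121 genes named by rule. Over all genes tested the share was 2.59%. The count was partly fixed by the choice of genes, so nothing is concluded from it against that share. Nxpe4, Tmem87a, St3gal4, H2-Q2, Tnfsf13os, Lpo, H2-D1, Nos1ap, Prune2 and Myl7 met a naming rule that already required passing this same test. Values are the difference on the log2 scale, Eeyore minus Winnie, and neither the allele nor the background can be given as its source. Among secretory and folding genes the 28 held Sdf2l1 (0.8339), Creld2 (0.8065), Pdia4 (1.419), Derl3 (1.352), Retnlb (3.588), Klk1 (−0.8471), Gcnt1 (−1.186) and St3gal4 (−5.522). Sterol synthesis gave Fdps (0.6352) and Nsdhl (0.9598), and immune genes gave Gzmb (3.345), H2-D1 (−3.628), H2-K1 (−2.285), H2-Q2 (−4.532) and Tnfsf13os (−4.229). The value of H2-D1 holds for its brightest probe set alone. Genes of the wall differed less, with Myh11 (−0.5815), Synpo2 (−0.673) and Sparcl1 (−0.4804). The others were Lpo (3.946), Tmem87a (6.041), Myl7 (3.204), Nxpe4 (−7.608), Prune2 (−3.23), Nos1ap (−3.294), Naaladl1 (−2.528), Cyp2f2 (−2.523), Cd44 (−1.394) and Rgmb (−1.259).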

How the results depend on the processing

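Of 6589 probe sets called against wild-type, 2747 were higher and 3842 lower. Median centring gave 6350 higher and 1877 lower, and quantile normalization 3120 and 2997, so that the split between directions depends on the scaling. The filter at the 75th percentile gave 4326, with 1873 lower. A 2-fold limit gave 2447 (510 higher, 1937 lower), and a ratio of group averages of at least 2 with no test gave 2837 (612 and 2225). Leaving out 1 mouse gave 4475 to 6789 in all, 1948 to 2834 higher and 2519 to 3955 lower. The lowest count in all and the lowest count of lower probe sets came without wild-type mouse 2, and the lowest count of higher ones without Eeyore mouse 2. Against Winnie the count of 519 was 282 with no intensity trend and 295 to 848 with 1 mouse left out, 329 without Eeyore mouse 2, 295 without Winnie mouse 3 and 848 without Eeyore mouse 1. Mouse numbers did not pair the samples (correlations of −0.00821 to 0.164 between same-numbered mice), and with the number as a block 6604 probe sets were called (2773 and 3831) and 524 against Winnie. List medians changed sign with median centring for transport (0.039), xenobiotic metabolism (0.086), fatty acid oxidation (0.22) and tight junctions (0.22), with the 75th percentile filter for neutrophils and mast cells (−1.97), fatty acid oxidation (0.0011) and tight junctions (0.0024), and with averaged probe sets for sex-linked genes (−6.48). Averaged probe sets also reversed Bub1 (−1.51), Edem2 (−0.0011) and H2-D1 (0.13). The causes were not tested. Of 121 named genes, 72 were called and kept their call in every alternative run, while 16 of the 20 not called gained a call in at least 1 alternative.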

Other observations

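The spread among mice was close in the 3 groups. The median standard deviation over genes, on the log2 scale, was 0.211 in Eeyore, 0.198 in Winnie and 0.175 in wild-type mice. In 185 genes the Eeyore mice spanned at least 4-fold while the wild-type mice spanned under 2-fold, and the lowest Eeyore signal lay in mouse 1 for 80 of them, in mouse 2 for 41 and in mouse 3 for 64. The widest was Thrsp, a gene of fat synthesis, with a range of 6.20 among Eeyore mice and 0.37 among wild-type mice on the log2 scale.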
